A study of Mus musculus with 4 samples.

Results

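Chemokines are small secreted or membrane-bound proteins that guide white blood cells, and the genes described here are those of the array platform whose symbol is Ccl, Cxcl, Ccr or Cxcr followed by a number, with Cx3cl1 and Cx3cr1 added. This naming rule gave 47 of the 12393 genes on the array, 31 ligands and 16 receptors. Each gene was represented by its probe set with the highest mean signal. Intestinal mucosa of male mice, 10 weeks of age and fed for 2 weeks, was measured in 4 groups: the inbred strains A/J and C57BL/6J, each fed either the low-fat or high-fat diet. The labels used here do not say what either diet was made of. As background, C57BL/6J gains weight readily when fed fat and A/J much less. Each group had 6 mice, but only the RNA of 2 of them, near the group's average weight, was pooled and hybridised to 1 Affymetrix 430A array. There were therefore 4 arrays and no replicate array of any group.

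A chemokine binds a seven-helix receptor coupled to an inhibitory G protein and the cell carrying the receptor moves towards the source. Ligands named Ccl have 2 adjacent cysteines near the start of the mature protein, and those named Cxcl have a residue between them. In the gut, some chemokines are made constantly by the epithelium and hold lymphocytes and antibody-secreting cells in the mucosa, while others are induced by interferon, by cytokines or by bacteria. Most receptors are carried by the leukocytes that are recruited, and so make up a small part of the RNA of whole mucosa.

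The values are signals scaled so that the trimmed mean of each array was 500. A floor of 100 was set before log2 was taken, and a gene was tested where its mean scaled signal was at least 100. Of the 47 members, 24 passed this filter, namely 18 of 31 ligands and 6 of 16 receptors, and 23 of the 24 were at or above the floor on all 4 arrays. The exception was Ccr10, at 94.5 on C57BL/6J high-fat. Because the filter uses the mean, a gene could pass through the arrays where it was high, and signals of different probe sets cannot be ranked against each other. Strain and diet were tested with limma as additive terms over all 4 arrays. With 1 array a group, a gene's own error in this fit is its strain-by-diet difference, with 1 residual degree of freedom. limma moderates it with a variance estimated over all genes, with 11.1 prior degrees of freedom. Most of the weight in each test therefore lies on that shared variance, and not on the gene's own strain-by-diet difference. The p-values carry no spread among separate mouse pools.

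Several strain differences that follow concern genes whose promoters are listed in RefSeq (build GRCm38.p6), so these sequences are shown to place the transcription factor motifs that belong to their known induction. Of the 47 members, 34 matched a promoter by gene number, and of the 8 members called by the strain test 5 did. The 250 bases before the transcription start are printed 5′ to 3′ on the strand of the gene, with motif matches in capitals. The motifs were searched on both strands: the ISRE core (GAAA, then any 2 bases, then GAAA), to which interferon-activated factors bind, the GAS element (TTCNNNGAA), a STAT site, and the NF-kB site.
Ccl20 (chr1:83116516-83116765, + strand): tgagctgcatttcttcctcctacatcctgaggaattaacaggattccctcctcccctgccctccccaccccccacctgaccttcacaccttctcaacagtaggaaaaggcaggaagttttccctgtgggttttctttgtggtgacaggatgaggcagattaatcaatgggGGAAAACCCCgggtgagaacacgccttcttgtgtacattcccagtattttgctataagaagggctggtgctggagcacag
Cxcl9 (chr5:92328080-92328329, - strand): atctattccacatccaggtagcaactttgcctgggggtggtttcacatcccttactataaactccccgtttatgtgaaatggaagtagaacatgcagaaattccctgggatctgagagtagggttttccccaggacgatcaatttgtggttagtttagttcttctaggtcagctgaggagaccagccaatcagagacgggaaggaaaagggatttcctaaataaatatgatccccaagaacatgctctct
Cxcl10 (chr5:92348890-92349139, - strand): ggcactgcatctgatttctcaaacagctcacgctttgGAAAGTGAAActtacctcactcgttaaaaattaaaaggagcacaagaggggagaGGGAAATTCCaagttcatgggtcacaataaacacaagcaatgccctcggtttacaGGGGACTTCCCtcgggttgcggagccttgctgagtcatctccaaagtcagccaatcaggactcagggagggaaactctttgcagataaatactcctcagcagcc
Ccl9 (chr11:83578637-83578886, - strand): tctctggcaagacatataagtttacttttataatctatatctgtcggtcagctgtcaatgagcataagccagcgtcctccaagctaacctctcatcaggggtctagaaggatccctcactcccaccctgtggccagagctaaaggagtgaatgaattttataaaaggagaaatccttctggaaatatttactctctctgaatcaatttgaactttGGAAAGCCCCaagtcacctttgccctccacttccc
Cxcl12 (chr6:117168285-117168534, + strand): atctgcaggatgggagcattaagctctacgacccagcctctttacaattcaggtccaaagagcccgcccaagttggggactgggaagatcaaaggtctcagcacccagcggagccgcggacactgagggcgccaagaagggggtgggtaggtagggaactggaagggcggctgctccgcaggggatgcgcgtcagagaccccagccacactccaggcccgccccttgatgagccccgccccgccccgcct
Cxcl10 held an ISRE core match, from 213 to 204 bases before the start, an NF-kB match from 159 to 150, and a pair of overlapping NF-kB matches that begin 104 and 103 bases before the start and are drawn as a single run of capitals. Ccl20 held an NF-kB match from 80 to 71 bases before the start and Ccl9 held one from 35 to 26. These windows of Cxcl9 and Cxcl12 held none of the 3 motifs, which says only that these letters are not there. Among all 32851 listed promoters, 2.98% held the ISRE core, 7.02% the GAS element and 7.25% the NF-kB site in windows of the same length. Of the 38 promoters listed for the members, 2 held the ISRE core, 4 the GAS element and 9 the NF-kB site. A match is a string of letters and no evidence that a factor was bound.

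**Figure D1:**
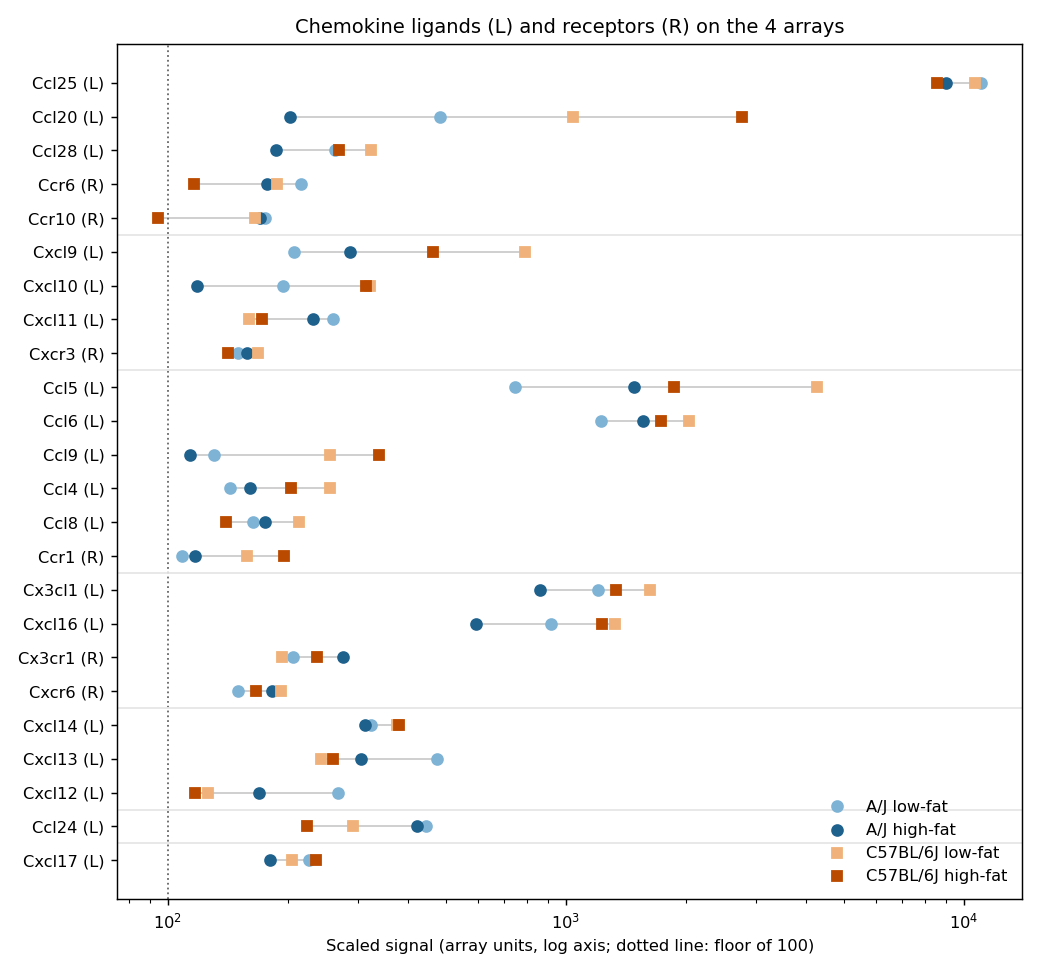
Scaled signal of the 24 members that passed the filter (x axis, array units on a log scale) on each of the 4 arrays, with ligands marked L and receptors R, grouped by role from gut homing at the top to Cxcl17 at the bottom. Each point is 1 array, circles are A/J and squares C57BL/6J, and the Ccl20 points run from 203 to 2768 while the Ccl25 points stay between 8578 and 11053.

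Between the strains, 8 of the 24 members tested passed the threshold, an adjusted p under 0.05 by limma, where 7.52% of all 8036 genes tested did. The interferon-induced ligands Cxcl9 and Cxcl10, the T cell chemokine Ccl5, the epithelial ligand Ccl20, the monocyte chemokine Ccl9 and the membrane-anchored ligand Cxcl16 were lower in A/J. Only Ccl24, an eosinophil attractant, and Cxcl12, a stromal ligand, were higher. All 8 are ligands: of the 6 receptors tested, 0 passed by limma, with 1 receptor and 12 ligands at an unadjusted p under 0.05, which 21.5% of all genes had. The 6 lower calls stand beside 3.68% of all genes, and the 2 higher calls beside 3.83%. All 8 kept their direction in every alternative processing that was run, but the calls did not all stay. Limma called 8 with a pseudocount of 50 or an intensity trend, where 9.72% and 10.6% of all genes passed. It called 1 with a floor of 50, where 4.26% of all genes passed. With a floor of 200 or with no filter it called 0 members and 0 of all genes. For single members, the counts of calls kept refer to 8 alternatives in how signals were scaled, floored, summarised or fitted. Ccl20, Ccl5, Cxcl9, Cxcl10 and Ccl24 each had only 1 probe set. Their differences could not be compared with a second probe set in any of these alternatives. The split of 2 higher and 6 lower became 0 and 4 after quantile normalization and 3 and 3 without scaling. Over all genes limma called 196 higher and 212 lower after quantile normalization, and 596 higher and 141 lower without scaling. Leaving out the scaling moves the median strain difference of all genes from 0.04 to 0.26 on the log2 scale.

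Counted without a test, both A/J arrays lay below both C57BL/6J arrays for 12 of the 24 members, against 21.9% of all genes tested, and above them for 5, against 27.2%. Without scaling these counts were 8 and 8, where 630 of all 8042 genes tested lay below and 4018 above. On low-fat, 4 members differed by at least 2-fold between the strains, where 5.64% of all genes did: Ccl20, Ccl5 and Cxcl9 were lower in A/J, against 2.64%, and Cxcl12 higher, against 3%. On high-fat, 4 did, where 4.31% of all genes did: Ccl20, Ccl9, Cxcl10 and Cxcl16 were lower, against 2.38%, and 0 were higher, against 1.93%. The median strain difference of the 24 members was -0.19 on the log2 scale beside 0.04 over all genes, with 16 members below 0 and 8 above.

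**Figure D2:**
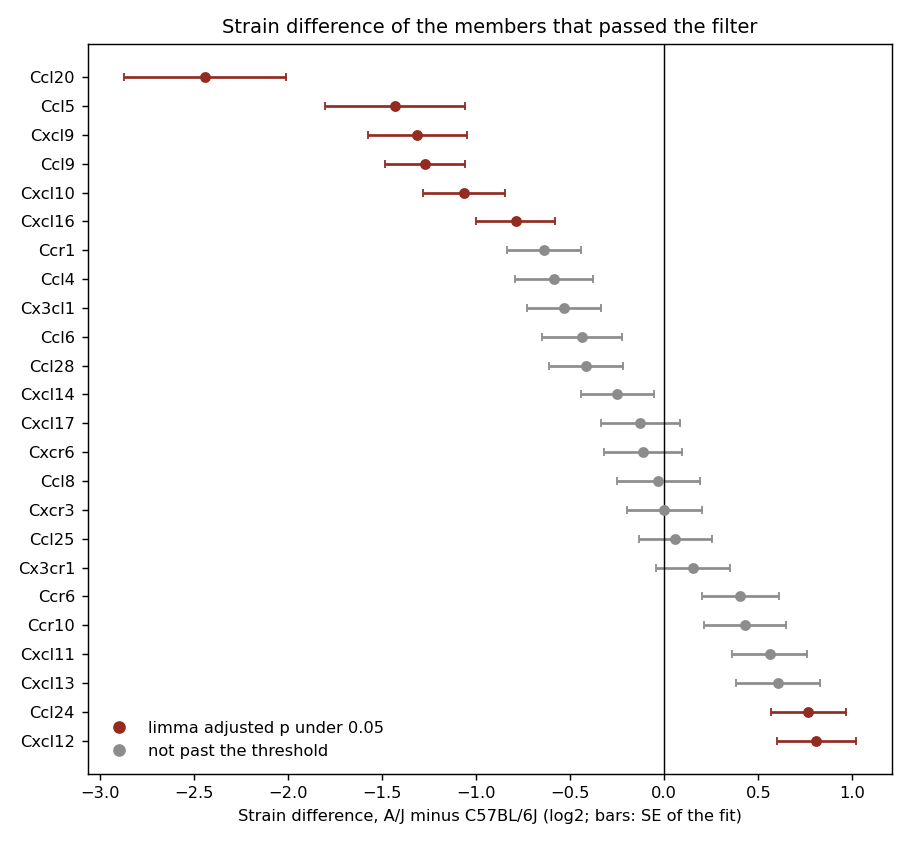
Strain difference of each of the 24 members, A/J minus C57BL/6J, in log2 units with the standard error of the limma fit as bars. The 8 members in red passed an adjusted p under 0.05, 6 to the left of 0 and 2 to the right. The signs of Ccl8, Cxcl17, Cxcr3 and Cxcr6, all close to 0, turn when arrays are not scaled.

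Diet gave no such calls. By limma 0 of the 24 members passed for the high-fat diet, where 0.61% of all genes did (0.423% higher and 0.187% lower), and 1 member had an unadjusted p under 0.05, beside 9.35% of all genes. That member was Ccr6, which had a log2 diet difference of -0.49 (SE 0.204, limma adjusted p = 0.468) and was lower on the high-fat array of both strains. The median diet difference was -0.12 over the 24 members and near 0 over all genes, with 18 members below 0 and 6 above. Both high-fat arrays lay above both low-fat arrays only for Cx3cr1, where 14.1% of all genes did so, and below them for Ccl25 and Ccr6, where 14.2% did. At 2-fold or more between 2 arrays, which has no replicate check, Ccl20 alone of the 24 members differed with diet in A/J, 1 lower against 1.05% of all genes and 0 higher against 0.796% (1.84% in either direction). In C57BL/6J, 2 members did, against 1.69%: Ccl20 was higher, against 1.02%, and Ccl5 lower, against 0.672%. These same 2 members, Ccl20 and Ccl5, differed by at least 1.5-fold in opposite directions in the strains, as 0.734% of all genes did.

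The gut homing ligands differed widely in how they varied. Ccl25, which the small intestinal epithelium makes and which draws lymphocytes and plasma cells that carry Ccr9, had scaled signals of 11053 and 8989.7 in A/J on low-fat and high-fat, and of 10678.5 and 8578 in C57BL/6J. The strains thus overlapped, and each high-fat array was below each low-fat array, by 1.23-fold in A/J and 1.24-fold in C57BL/6J. This diet difference of -0.31 on the log2 scale did not pass (SE 0.194, limma adjusted p = 0.732). Its receptor Ccr9 did not pass the filter: none of its 3 probe sets reached the floor on any array, and the highest signal was 91.3.

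Ccl28 is made by mucosal epithelium and attracts IgA-secreting cells through Ccr10. Its signal was 263 and 186 in A/J on low-fat and high-fat, and 324 and 269.8 in C57BL/6J. Both A/J arrays were below both C57BL/6J arrays, with a strain difference of -0.42 on the log2 scale that did not pass (SE 0.197, limma adjusted p = 0.249). Without scaling the strains overlapped for Ccl28. Another probe set of Ccl28 gave -0.42 as well. Ccr10 had signals of 175 and 170.4 in A/J, and of 165 and 94.5 in C57BL/6J, low-fat before high-fat, which makes its ratio there a bound of at least 1.65-fold lower than on low-fat.

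Ccl20, the ligand of Ccr6 and a product of the epithelium over lymphoid follicles, had the largest strain difference of the 24 members. In A/J its signal was 482 on low-fat and 203 on high-fat, and in C57BL/6J it was 1040.0 and 2768. The strains did not overlap, and the diet arrays moved in opposite directions. A/J was 2.16-fold lower than C57BL/6J on low-fat and 13.7-fold lower on high-fat. The log2 strain difference was -2.44 (SE 0.43, limma adjusted p = 0.00411). That call was kept in 4 of 8 alternative settings, with the adjusted p from 6.13e-06 to 0.512. High-fat was 2.38-fold lower than low-fat in A/J and 2.66-fold higher in C57BL/6J, a difference of the log2 diet ratios of -2.66 that has no test here. The mean diet difference of Ccl20 was therefore near 0, at 0.08, and turned to -0.016 without scaling.

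Signals of neighbouring tissue moved over the same arrays. The exocrine pancreas list (10 of 13 markers found) summed in A/J to 89779.6 on low-fat and 2351 on high-fat, and in C57BL/6J to 91559.7 and 143929, which is the order of the Ccl20 signals. On A/J high-fat 5 of these 10 markers were below the floor, and on the other arrays 0 were. The stomach surface list (5 of 6 found) summed to 3128, 1180.3, 1895 and 9471 in the same order of arrays, and of these 5 markers 2, 4, 3 and 1 were below the floor. The list for epithelium over lymphoid follicles and M cells, taken without Ccl20, summed to 2123, 1272, 1914 and 2689, and Gp2 carried this movement, with 992, 64.2, 670 and 1363. Gp2 is also a gene of pancreatic zymogen granules, and the other 4 markers summed to 1131, 1208, 1244 and 1326. None of these markers had a signal of 0 on any array. The part of these lists in the Ccl20 result was not tested. Ccr6, carried by B cells and some T cells, had signals of 215 and 178 in A/J and 188 and 116 in C57BL/6J, low-fat before high-fat, and so did not follow its ligand.

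**Figure D3:**
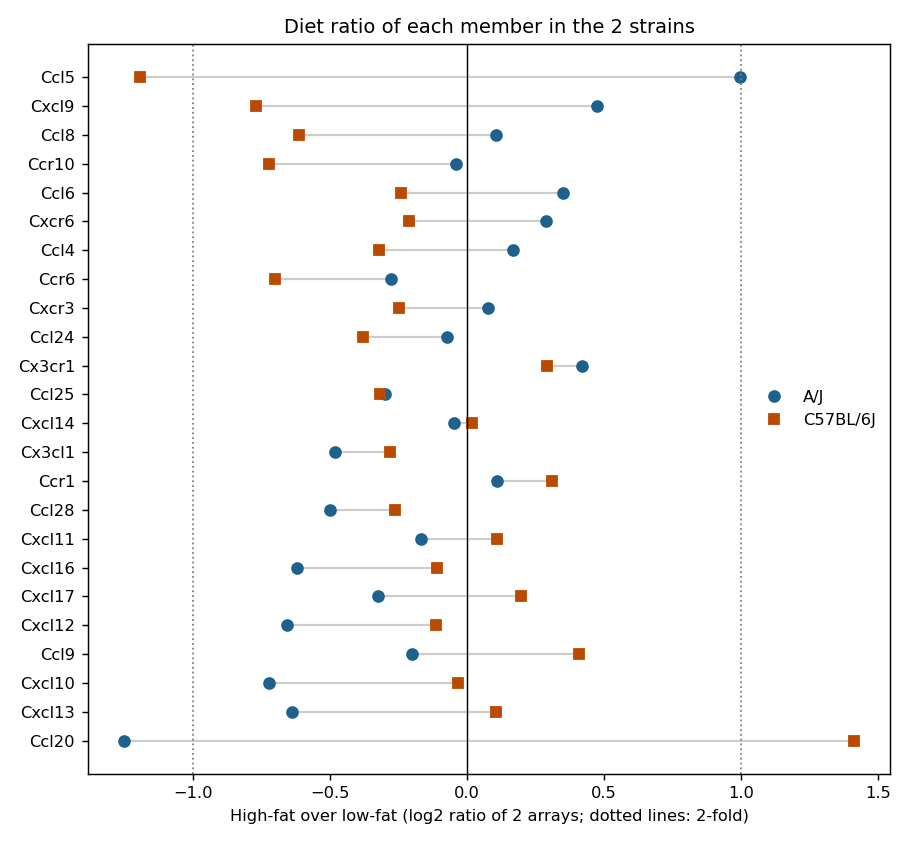
High-fat over low-fat log2 ratio of each of the 24 members, in A/J (circles) and in C57BL/6J (squares), with dotted lines at 2-fold and members ordered by the difference between the strains. Ccl20 lies at -1.25 in A/J and 1.41 in C57BL/6J, and Ccl5, on the opposite side in both, at -1.19 in C57BL/6J, while Ccl25 has nearly the same ratio in both. The C57BL/6J ratios of Cxcl11, Cxcl13 and Cxcl14, all near 0, change sign without scaling.

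The ligands of Cxcr3 are induced by interferon-gamma and recruit effector T cells, and 2 of the 3 were lower in A/J. Cxcl9 had signals of 207 and 287 in A/J on low-fat and high-fat, and of 790.3 and 464 in C57BL/6J. The strains did not overlap, and the log2 strain difference was -1.31 (SE 0.264, limma adjusted p = 0.00944), a call kept in 3 of 8 alternatives. A/J was 3.82-fold lower on low-fat but 1.61-fold lower on high-fat. Cxcl10 had signals of 195 and 118 in A/J and 321 and 314 in C57BL/6J, low-fat before high-fat. It was 1.65-fold lower in A/J on low-fat and 2.66-fold lower on high-fat, with a strain difference of -1.07 (SE 0.218, limma adjusted p = 0.0104) that was kept in 6 of 8 alternatives. With diet, Cxcl9 was 1.39-fold higher in A/J and 1.71-fold lower in C57BL/6J, whereas Cxcl10 was 1.65-fold lower in A/J and 1.02-fold lower in C57BL/6J. These neighbouring genes, with 1 protein-coding gene between them in RefSeq, thus did not share an order of the 4 arrays.

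Cxcl11, listed by RefSeq as a transcribed pseudogene in its C57BL/6J-based assembly, went the other way. Its signals were 259.6 and 231 in A/J and 159.9 and 173 in C57BL/6J, so that both A/J arrays were the higher. The strain difference of 0.56 on the log2 scale did not pass (SE 0.198, limma adjusted p = 0.117) but did without scaling, at 0.79 (limma adjusted p = 0.0438). Its other probe set was below the floor on all 4 arrays. Cxcr3, the receptor of these ligands, lay between 142 and 168 on the 4 arrays, and its strains overlapped.

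Among ligands for T cells and monocytes, Ccl5 varied most over the arrays. Ccl5 is made by activated and intraepithelial T cells and attracts further T cells. In A/J its signal was 743 on low-fat and 1480.3 on high-fat, and in C57BL/6J it was 4275 and 1871. Both A/J arrays were below both C57BL/6J arrays, by 5.76-fold on low-fat and 1.26-fold on high-fat. Its log2 strain difference of -1.43 passed (SE 0.37, limma adjusted p = 0.0354) and was kept in 2 of 8 alternatives, with an adjusted p of up to 0.629. On high-fat Ccl5 was 1.99-fold higher in A/J and 2.29-fold lower in C57BL/6J, so the log2 diet ratios differed by 2.19, again with no test.

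The summed T cell and intraepithelial lymphocyte markers had the same order of arrays as Ccl5 and Cxcl9. The place of C57BL/6J high-fat above both A/J arrays came from the granzymes Gzma and Gzmb. Of 17 markers, 14 were found, and their sums, low-fat before high-fat, were 4062 and 4435 in A/J and 10674.5 and 6828 in C57BL/6J. Without Gzma and Gzmb the other 12 summed to 2901 and 2947 in A/J and 3943 and 2627 in C57BL/6J. C57BL/6J low-fat was thus still the highest, but C57BL/6J high-fat was the lowest. Of the tested markers besides the granzymes, Cd3d, Cd3g, Cd8a, Cd7, Nkg7 and Zap70 were also highest on C57BL/6J low-fat. Cd3e, Cd4 and Itgae were not. Itgae, an integrin subunit of intraepithelial lymphocytes, ran the other way, with 341 and 287 in A/J and 250.01 and 173 in C57BL/6J. On each array 3 of the 14 were below the floor, and none was at 0. By limma 2 of the 11 markers tested were lower in A/J, these granzymes of cytotoxic cells: Gzma by 2.28 on the log2 scale and Gzmb by 1.34, while Cd3e had signals of 140.0, 187, 148 and 125 in the order of arrays above. The array with the highest Ccl5 and Cxcl9, C57BL/6J low-fat, also had the highest 18S ribosomal RNA signal from its 5′ probes, at 11009.7 against 1675 on high-fat in that strain and 218 and 84.4 in A/J. The part of either in the results for Ccl5 and Cxcl9 was not tested. In whole mucosa, fewer cells of a type and less RNA per cell cannot be told apart.

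**Figure D4:**
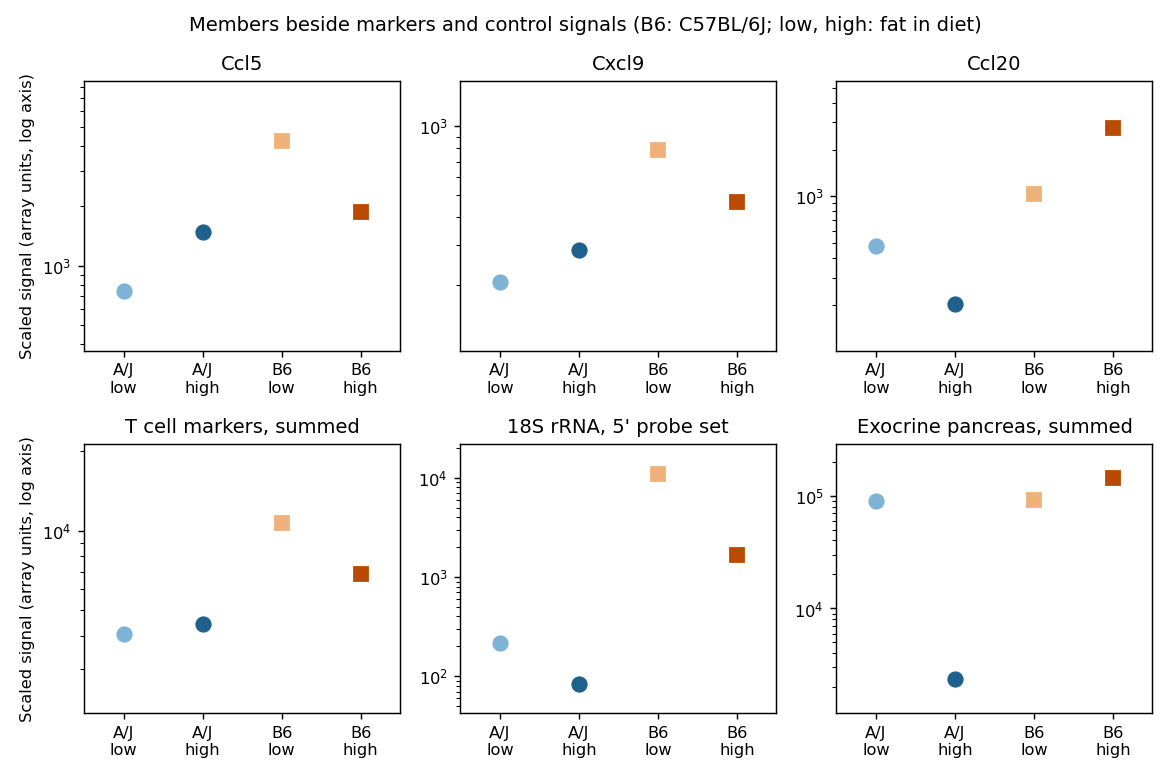
Scaled signals on the 4 arrays (log axes that differ between panels) of Ccl5, Cxcl9 and Ccl20 in the top row and, below, the summed T cell markers, the 18S ribosomal RNA 5′ control and the summed exocrine pancreas markers. Each point is 1 array, so there are no error bars. Ccl5, Cxcl9 and the T cell sum are highest on C57BL/6J low-fat, and Ccl20 and the pancreas markers are lowest on A/J high-fat and highest on C57BL/6J high-fat. Without Gzma and Gzmb (not drawn) the T cell sum is still highest on C57BL/6J low-fat but lowest on C57BL/6J high-fat.

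Ccl9 and Ccl6, related monocyte chemokines of rodents that bind Ccr1, lie next to each other and to Ccl5 in RefSeq, in a run of neighbours with Ccl3 and Ccl4. Ccl9 had signals of 131 and 114 in A/J and 256 and 339.7 in C57BL/6J, low-fat before high-fat. A/J was 1.96-fold lower on low-fat and 2.99-fold lower on high-fat, and the log2 strain difference was -1.27 (SE 0.213, limma adjusted p = 0.00291). This call was kept in 7 of 8 alternatives and lost with a floor of 200, at an adjusted p of 0.403. Its second probe set gave a smaller difference of -0.41, with 56.5 and 119 in A/J and 143 and 147 in C57BL/6J.

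Ccl6 had signals of 1227 and 1564 in A/J and 2039 and 1728 in C57BL/6J. Both A/J arrays were again the lower, but the strain difference of -0.44 did not pass (SE 0.212, limma adjusted p = 0.26), and on high-fat it turned to the other direction, a log2 ratio of 0.14, without scaling. Ccl4, an attractant made by cytotoxic lymphocytes and macrophages, had 144 and 161 in A/J and 255 and 204 in C57BL/6J (strain difference -0.59, SE 0.207, limma adjusted p = 0.115). Ccr1 itself had 108 and 117 in A/J and 158 and 195 in C57BL/6J, a strain difference of -0.64 (SE 0.196, limma adjusted p = 0.0716). Ccl8 overlapped between the strains, at 163 and 175 in A/J and 214 and 139.8 in C57BL/6J. Ccl6, Ccl4 and Ccr1 therefore lay on the same side as Ccl9 without passing the test. The sum of the neutrophil list (8 of 9 markers found) lay on that side too, at 517 and 572 in A/J and 852 and 669 in C57BL/6J and 7, 5, 4 and 6 markers below the floor in that order, none at 0. Of its 3 markers tested, limma called Ltf and Csf3r lower in A/J. Without them the other 6 summed to 291 and 322 in A/J and 403 and 303 in C57BL/6J, which overlap, and their part in the Ccl9 result was not tested.

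The brightest probe sets of both membrane-anchored ligands had lower signals on the A/J arrays. Cxcl16, which is made by epithelium and myeloid cells and binds Cxcr6 on T cells, had 916 and 596 in A/J and 1327 and 1231 in C57BL/6J, low-fat before high-fat. Its log2 strain difference was -0.79 (SE 0.208, limma adjusted p = 0.0381), kept in 3 of 8 alternatives. A second probe set gave -1.04. Cx3cl1, the ligand of mononuclear phagocytes that carry Cx3cr1, had 1201 and 861 in A/J and 1624 and 1336 in C57BL/6J. Its strain difference of -0.53 did not pass (SE 0.196, limma adjusted p = 0.131), and its other probe sets gave -0.05 and 0.14. The probe set that gave -0.05 had 835 and 902 in A/J and 1059 and 767 in C57BL/6J, which overlap. Without scaling the strains overlapped for the brightest probe set of Cx3cl1 as well.

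The receptors of this pair did not follow their ligands. Cx3cr1 had 206 and 275 in A/J and 193 and 237 in C57BL/6J. It was higher on both high-fat arrays, with a diet difference of 0.36 that did not pass (SE 0.195, limma adjusted p = 0.66). Cxcr6 lay between 149.8 and 193 on the 4 arrays, with the strains overlapping. The macrophage and dendritic cell list, with 12 of 12 markers found, summed to between 9551 and 10853, and by limma 0 of its 10 tested markers passed for strain, with 1 at an unadjusted p under 0.05.

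Of the 3 tested ligands of lymphoid tissue and stroma, Cxcl12 alone was called, and it was higher in A/J. Cxcl12, which stromal cells make and which retains cells that carry Cxcr4, had 267 and 169.6 in A/J and 126 and 117 in C57BL/6J. Its strain difference of 0.81 passed (SE 0.21, limma adjusted p = 0.0360) and was kept in 3 of 8 alternatives. A second probe set gave 0.71, with 241 and 184 in A/J against 59.7 and 165 in C57BL/6J, so the strains did not overlap there either. Cxcl13, the B cell attractant of follicles, had 475 and 306 in A/J and 242 and 260.2 in C57BL/6J, with a strain difference of 0.60 that did not pass (SE 0.222, limma adjusted p = 0.131). The mean of its 2 probe sets did pass, at 0.82 (limma adjusted p = 0.0333).

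Some B cell and smooth muscle markers were also higher in A/J. The B cell list (8 of 9 found) summed to 1815 and 1798 in A/J and 1225 and 915 in C57BL/6J, low-fat before high-fat, with 1, 2, 3 and 4 markers below the floor, and by limma Cd79a and Cd22 of its 5 tested markers were higher in A/J, while Cd79b overlapped between the strains, with 199 and 227 against 232 and 119. The smooth muscle list (8 of 8 found) summed to 2759 and 1909 in A/J and to 1793 and 1687 in C57BL/6J. By limma 1 of its 6 tested markers, Des, was higher in A/J, and without it the other 7 summed to 2489 and 1647 in A/J and 1724 and 1659 in C57BL/6J, which overlap. Of the 8 found, 1, 3, 4 and 4 were below the floor on the arrays in that order. No marker of either list was at 0. The fibroblast list (9 of 9 found) summed to 4031 and 4326 in A/J and 3781 and 4255 in C57BL/6J, which overlap. For strain, limma called 0 of its 6 tested markers. The endothelium list (8 of 8 found) summed to 1850 and 1650 in A/J and 1485 and 1562 in C57BL/6J. Of its 7 tested markers limma called 1, Tek, higher in A/J. The part of all these lists in the Cxcl12 and Cxcl13 values was not tested.

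Cxcl14, the other ligand of this role, had 324 and 313 in A/J and 376 and 381 in C57BL/6J, so that both A/J arrays were the lower. For Cxcl14 the strains overlapped without scaling. Cxcl17, a mucosal ligand of myeloid cells, had 226 and 179.95 in A/J and 205 and 236 in C57BL/6J. Neither passed for strain by limma, with differences of -0.25 and -0.13 on the log2 scale. Ccl24, which attracts eosinophils through Ccr3, had 445 and 423 in A/J and 291 and 224 in C57BL/6J. It was 1.53-fold higher in A/J on low-fat and 1.89-fold higher on high-fat, and its strain difference of 0.77 (SE 0.199, limma adjusted p = 0.0363) was kept in 3 of 8 alternatives. The eosinophil and mast cell list (9 of 9 found) summed to 870 and 812 in A/J and 580 and 517 in C57BL/6J, with 6, 7, 8 and 8 markers below the floor, none at 0. Limma called its mast cell protease Mcpt2 higher in A/J, while the eosinophil markers Prg2, Epx and Siglecf were below the floor on all arrays. Without Mcpt2 the other 8 summed to 488 and 464 in A/J and 501 and 398 in C57BL/6J, which overlap, and the part of Mcpt2 in the Ccl24 result was not tested. The receptor Ccr3 stayed below the floor on all 4 arrays, with a highest signal of 41.0.

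**Figure D5:**
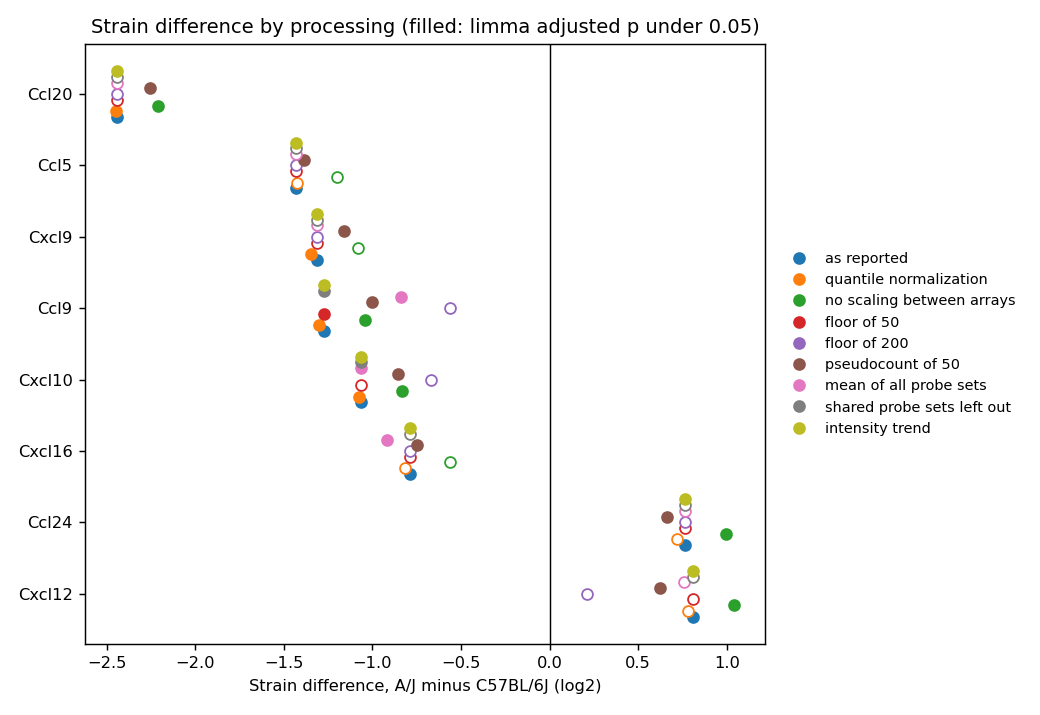
Strain difference in log2 units, A/J minus C57BL/6J, of the 8 members called by limma, as reported and under 8 other ways of processing the signals. Filled points passed an adjusted p under 0.05 and open points did not. Every point stays on its side of 0, Ccl9 and Cxcl10 keep the most filled points, and the floor of 200 leaves none.

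The remaining 23 members, 13 ligands and 10 receptors, did not pass the filter, with mean scaled signals from 3.18 for Cxcl5 to 78.2 for Ccr9. Of these, 18 were below the floor on all arrays, among them the neutrophil ligands Cxcl1, Cxcl2 and Cxcl5, the monocyte ligands Ccl2, Ccl7 and Ccl12 and the lymph node homing receptor Ccr7. The other 5 reached the floor on A/J low-fat alone: Cxcr4 at 133, Cxcr2 at 125, Cxcl15 at 112, Ccr4 at 108.7 and Ccl17 at 100.9. None reached 200. At these signals a difference between groups could not be told from background, and low signal on this array does not show that a gene was silent. The member with the lowest mean that passed was Ccr1, at 145.

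Genes around the chemokine system were taken from 4 further lists. Atypical receptors and chemokine-like genes outside the naming rule had 6 of 12 genes tested. By limma 0 of these passed for strain (2 at an unadjusted p under 0.05) and 1 rose with the high-fat diet, the chemokine-like factor Cklf. Its signals were 85.1 on low-fat and 460.3 on high-fat in A/J, and 101 and 177 in C57BL/6J, a ratio of at least 4.60-fold in A/J and of 1.75-fold in C57BL/6J. The fitted average over the strains, with signals under the floor set to it, was 2.84-fold (SE 0.28 on the log2 scale, limma adjusted p = 0.0345). Of genes that induce inflammatory chemokines, 21 of 27 were tested and limma called 2 for strain, where 7.52% of all genes were called. Both were lower in A/J, the NF-kB inhibitor Nfkbia by 0.84 and the subunit Nfkb2 by 0.70 on the log2 scale (limma adjusted p = 0.0210 and 0.0491). The other NF-kB subunits tested, Rela and Relb, had strain differences of 0.20 and -0.11 that did not pass (limma adjusted p = 0.639 and 0.806). Nfkbia had signals of 6264 and 6422 in A/J and 10816 and 11913 in C57BL/6J. Ifng, which encodes interferon-gamma, was below the floor on all 4 arrays, and Irf1, a factor it induces, had 2847 and 3082 in A/J and 4530.3 and 4111 in C57BL/6J (strain difference -0.54, limma adjusted p = 0.127).

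Of homing adhesion genes, 9 of 11 were tested, and limma called the integrin subunit Itgb7 lower in A/J, with signals of 85.4 and 68.1 in A/J against 221 and 145 in C57BL/6J, and the adhesion receptor Vcam1 higher, with 219 and 242 against 158 and 106. Signalling genes below chemokine receptors had 18 of 24 tested, of which 0 passed by limma for strain (2 at an unadjusted p under 0.05) and 0 for diet (3 at that threshold). Calls in these lists stand beside 7.52% of all genes for strain and 0.61% for diet.

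All 10 enterocyte markers found, of 12, were above the floor on every array, with sums between 168900 and 183860. Signals of neighbouring tissue were not alike across the arrays. The exocrine pancreas list summed to 89779.6 and 2351 in A/J and 91559.7 and 143929 in C57BL/6J, low-fat before high-fat. Its part in the values of the members was not tested. The 3′ over 5′ ratio for Gapdh ran from 0.783 to 0.825. Before scaling, the trimmed means of the arrays were 184 and 178 in A/J and 163 and 147 in C57BL/6J, low-fat before high-fat. After it 58.6% to 60.3% of probe sets reached the floor. The scaled signals of the control probe set CreX were 12094 and 11988 in A/J and 19458 and 21250 in C57BL/6J. Array level and control signal thus split by strain, which with 1 array a group cannot be told apart from the strain contrast.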

How the data were processed

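Mucosal RNA of 4 pools, 1 for each strain and diet, was hybridised to 1 array each. Per the labels' protocols, the deposited intensity of a probe set is the Microarray Suite 5.0 signal, which combines perfect match with mismatch probes. No scaling target is stated in these sources. Of 22690 probe sets, 64 controls were left out. Of the other 22626, 20380 had 1 gene in the platform annotation and were used, 691 had several and 1555 none. Those with several genes include 4 that list a member and were not analysed here. All 47 members matched RefSeq by gene number, with 0 symbols changed. Each array was scaled to a mean of 500, trimmed by 2% at each end, floored at 100 and taken to log2. Genes with a mean of at least 100 (8036 of 12393) were fitted with limma 3.58.1 in R 4.3.3, with strain and diet as additive terms. The fit had 1 residual and 11.1 prior degrees of freedom, and p-values had Benjamini-Hochberg adjustment over all genes. Where a group lay under the floor, its ratio is a bound. Python 3.11.15 with numpy 2.4.6, pandas 2.3.3 and matplotlib 3.10.9 served the other steps. Named were all members that passed the filter, any other reaching 200, and list genes called by limma. The T cell markers other than the granzymes, Cd79b, Gp2, Ifng, Irf1, Rela, Relb, Prg2, Epx, Siglecf and the named members under the filter were added after their values were seen. List sums with named markers left out were also added then. Members, lists and tests were chosen with earlier results of these data known. Alternatives were quantile normalization, no scaling, floors of 50 and 200, a pseudocount of 50, the mean of all probe sets, shared probe sets left out, no filter, an intensity trend, 1 factor, and each array left out. Precision is limited by the number of arrays.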

Additional observations from a re-analysis of the deposited data

Results flagged for a closer look

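The high-fat ratio of Ccl20 was 2.38-fold lower in A/J and 2.66-fold higher in C57BL/6J, so that the log2 ratios differed by -2.66 between the strains. The ratio of Ccl5 went the other way, 1.99-fold higher in A/J and 2.29-fold lower in C57BL/6J, a difference of 2.19 on the log2 scale. Both stand here because each strain differed by at least 1.5-fold in the opposite direction, as 0.734% of all genes tested did. With 1 array a group, neither difference between the strains was tested.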

How the results depend on the processing

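The strain test called 8 members as reported, 4 after quantile normalization, 1 with a floor of 50, 0 with a floor of 200, 4 with the mean of all probe sets, 2 with shared probe sets left out, 0 with no filter on mean signal and 1 with strain as the only factor. It called 8 with a pseudocount of 50 or an intensity trend and 6 without scaling, 5 of them among the 8. Over all genes the share called was 7.52% as reported, 5.07% after quantile normalization, 4.26% with a floor of 50 and 0 with a floor of 200. It was 5.06% with the mean of all probe sets, 4.45% with shared ones left out, 0 with no filter and 1.79% with strain alone. With the pseudocount, the trend and no scaling it was 9.72%, 10.6% and 9.16%. All 8 kept their sign in each of these fits. Leaving out each array in turn gave 0 to 0 calls, in a fit of strain alone in which the lone array of a strain is assumed to vary like the other; over all genes that fit also called 0. The diet test called 0 members in every setting. At 2-fold, the count for diet in A/J became 2 after quantile normalization, and that for strain on high-fat became 2 with a floor of 200; the other counts stayed within 1.5 times. Without scaling, small strain differences turned to 0.20 for Ccl8, 0.10 for Cxcl17, 0.23 for Cxcr3 and 0.12 for Cxcr6, and diet differences to -0.016 for Ccl20, -0.0408 for Ccl6 and -0.0583 for Cxcr6. The diet difference of Cxcl14 turned to 0.0457 with the mean of all probe sets and 0.11 with shared ones left out, and that of Cxcl17 to 0.0121 with a floor of 200. The cause of these changes was not tested. No paired analysis was possible because each group had 1 array and the labels carry no replicate numbers. Members near the floor of 100, such as Ccr1 with a mean of 145, have ratios limited by it.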
